A study of Mus musculus with 8 samples.

Results

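Chemokines and chemokine receptors were examined as a group of genes in H3K27ac peak lists of mouse breast tumors. The members were every autosomal protein-coding gene of the annotation whose symbol names a CC or CXC chemokine (Ccl, Cxcl) or a receptor for one (Ccr, Cxcr), together with Cx3cl1, Cx3cr1, Xcl1, Xcr1 and the atypical receptors Ackr1 to Ackr4. This name rule found 58 members, 37 ligands and 21 receptors, among 20807 genes. Acetylation of histone H3 at lysine 27 (H3K27ac) marks active promoters and enhancers, and it was mapped by chromatin immunoprecipitation and sequencing (ChIP-seq).

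Control tumors came from mice of the genotype PyMT;Rag1KO (n = 2), and test tumors from mice of the genotype K14-TSLPtg;PyMT;Rag1KO (n = 2), all on the Balb/c strain background. Both groups carried the polyoma middle T oncogene (PyMT) behind the MMTV promoter, lacked Rag1 and so had no mature T or B cells of their own, and had been given sorted naive CD4+ T cells when 4 weeks old. The test mice differed by a transgene for the cytokine thymic stromal lymphopoietin (TSLP) behind the keratin 14 (K14) promoter, which is active in skin and other stratified epithelia. By title the control samples are tumor and the test samples cyst, and an age at harvest is not given per the labels.

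Chemokines are small secreted proteins that direct the movement of leukocytes, and are grouped as CC, CXC, CX3C and C by the spacing of cysteines near the amino terminus. They signal through receptors coupled to G proteins of the Gi class, while the atypical receptors bind and remove chemokines without G protein signaling. TSLP acts on dendritic cells, innate lymphoid cells and CD4+ T cells in type 2 inflammation, in which Ccl17 and Ccl22 and their receptor Ccr4 are known for bringing in T helper 2 cells.

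Each tumor was a piece of whole tissue, so that fewer cells of a type and less acetylation per cell cannot be told apart. The lists held 69861 and 67850 peaks in control and 65763 and 59762 in test tumors, with no score, height or read count, so sequencing depth is unknown. Of 12 markers of luminal breast epithelium 10 were covered in every tumor, Krt8 and Epcam among them (33.99% to 42.7% of their windows), while Foxa1 was at 0 throughout and Elf5 had 1.74% in control 1, 1.75% in test 1 and 0 in the others, and Cd3e, a T cell marker, had at most 1.27%. With 2 tumors against 2 there are 3 groupings in pairs, so an exact two-sided permutation test cannot go below p = 0.333. No group difference was therefore tested, and each value is given by tumor.

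Coverage, the main measure, was the percent of a window reaching 10 kb to each side of the transcription start site (TSS) that lay in peaks. At least 1 tumor had a peak in that window for 34 of the 58 members (58.6%), against 69.1% of all genes. Mean coverage over all 58 members was 8.28% and 6.22% in control and 6.57% and 5.12% in test tumors, where all genes averaged 9.18%, 9.23%, 9.85% and 8.60%. Members were thus below the average gene in each tumor, and the control 1 tumor was the highest of the 4.

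Both control tumors exceeded both test tumors in coverage for 8 of the 34 covered members (23.5%), among them Ccr1, Ccr2, Cxcl2, Cxcl5, Cxcl9, Cxcl16 and Ccl12, against 11.7% of the 14381 covered genes. The reverse order was seen for 3 members (8.82%), Ccl6, Ccr4 and Cxcr6, against 20.9% of covered genes. In the other 23 members the groups overlapped. The median difference, test mean minus control mean, was -1.24 percentage points over covered members and 0.27 over covered genes. Ligands and receptors had similar medians, -1.33 in 19 covered ligands and -1.15 in 15 covered receptors. When peaks under 1 kb were left out, both control tumors were higher for 2 of 24 covered members (8.33%), Ccr1 and Cxcl5, against 9.6% of genes, a share no longer above the background. Without the test 2 tumor, which had the shortest list, 11 members were higher in both control tumors than in test 1 (32.4% against 18.2% of genes) and 11 were lower (32.4% against 50.1%).

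**Figure D1:**
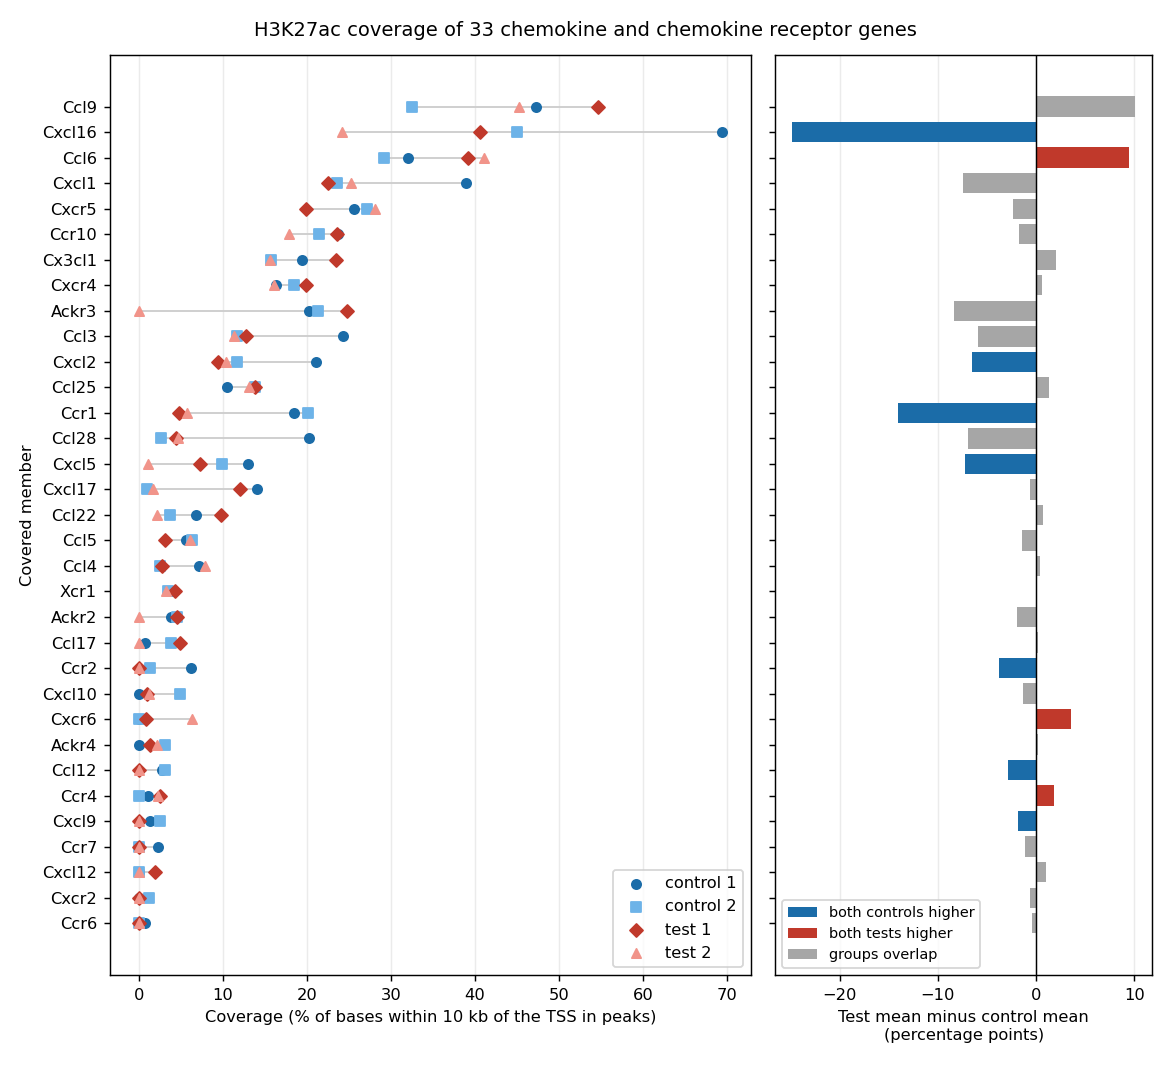
Left, H3K27ac coverage in percent of the bases within 10 kb of the TSS for the covered members described here in each of the 4 tumors (points), ordered by their mean. Right, test mean minus control mean in percentage points, with color marking whether the groups overlap; Cxcl16 (-24.8) and Ccr1 (-14.1) extend farthest to the left, and Ccl9 (10.1) and Ccl6 (9.51) to the right.

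Promoter peaks, within 1 kb of the TSS, were fewer than in other genes. All 4 tumors had a promoter peak at 10 members (17.2%), against 50.9% of all genes. Among them were Cx3cl1, Ccr1, Cxcr4, Ccl25, Ccl6, Ccl9, Cxcl1, Cxcl16 and Cxcl17. No tumor had one at 40 members, of which 24 had no peak anywhere in the window (58.6% of members had one, against 69.1% of all genes). Among covered members 16 of 34 (47.1%) had peaks in the window but none at the promoter, which was so for 15.2% of covered genes. A promoter peak in both control tumors and no test tumor was found at 1 member, Ccl12, against 0.548% of genes. The opposite pattern was found at 0 of 58 members, against 0.317% of genes.

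Away from the start the members differed less from other genes. Within 1 kb of the TSS the covered members had a mean coverage of 30.9% and 24.1% in the control and 25.1% and 18.4% in the test tumors, and covered genes had 49.7% to 53.6%. Between 2.5 and 5 kb the order was turned, with 11.03% to 15.9% in members and 7.48% to 8.96% in covered genes. A peak at this distance was present for 21 of 34 members (61.8%) and for 46.6% of covered genes. A covered gene needs a peak somewhere in its window. No promoter peak was present for 47.1% of covered members and 15.2% of covered genes, so more members counted here through peaks farther out. The excess at this distance is thus partly set by that selection. Out of all genes, covered or not, 21 of 58 members and 6695 of 20807 genes had a peak there.

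**Figure D2:**
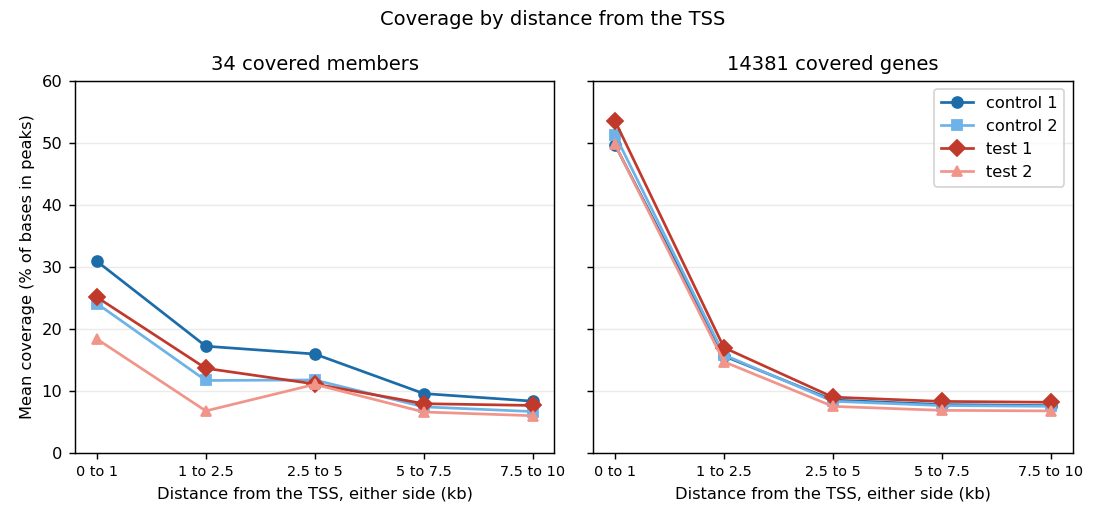
Mean coverage (percent of bases in peaks) by distance from the TSS on either side (kb) in each tumor, for the 34 covered members (left) and the 14381 covered genes (right). Members start lower within 1 kb, at 18.4% to 30.9% against 49.7% to 53.6%, and lie above covered genes from 2.5 to 5 kb. Only genes with a peak within 10 kb enter, so the excess away from the TSS is partly set by that selection.

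Overlapping or touching peaks from any of the 4 tumors were merged into regions, of which 111 lay in member windows and 29182 in windows of all genes. Regions present in both control tumors and in no test tumor numbered 10 (9.01%), against 2.66% of regions at all genes, among them 3 at Cxcl16, 2 at Ccl12 and 1 each at Ccl3, Cxcl9, Ccr1 and Ccr2. Regions present only in both test tumors numbered 4 (3.604%), against 1.35%, with 2 at Ccl6 and 1 each at Cx3cl1 and Cxcr6. These counts moved with the peaks used. Control-only regions numbered 5 with equal peak numbers (5.1%, against 2.07% at all genes), 5 with peaks within 1 kb joined (8.06%, against 1.86%) and 2 with peaks at least 1 kb wide (5.71%, against 1.58%), the last with 0 test-only regions against 2.05%. With control 2 left out 35 were control-only (31.8%, against 10.9%), with control 1 left out 16 (16.2%, against 11.9%) and with test 1 left out 17 (17.2%, against 8.69%). Joined peaks and 5 kb windows each gave 2 test-only regions (3.23% and 2.78%, against 1.07% and 1.21%), and leaving out control 1, control 2, test 1 and test 2 in turn gave 7, 7, 10 and 16 (7.07%, 6.36%, 10.1% and 15%, against 3.08%, 3.16%, 7.27% and 9.63%). All 4 tumors shared 34 regions (30.6%), against 52.1%. The control 1 tumor alone held 23 (20.7%, against 6.85%), of which 7 were at Ccl28 and 3 at Ccr2.

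Among the CC receptors, Ccr1 and Ccr2, which bind inflammatory CC chemokines and are carried by monocytes and macrophages, both had more coverage in both control tumors. Ccr1 (chr9:123962124-123968692, minus strand, mm10), a receptor for Ccl3 and Ccl5 among others, had 18.4% and 20.1% in control and 4.73% and 5.67% in test tumors. The groups were far apart and each was tight, with a difference of -14.1 percentage points (SD 1.13, taken throughout over the 4 possible pairs of a control and a test tumor). All 4 tumors had acetylation just downstream of the Ccr1 start, in a region from 17 to 3736 bp past the TSS, but peaks filled 3405 and 3648 bp of it in the control and 946 and 1134 bp in the test tumors. A further region of the gene, 4070 to 4463 bp past the start, was present only in the control tumors.

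Because the gene had a peak within 1 kb of its start in every tumor and groups that lay far apart, the 250 bases before the Ccr1 start are shown. None of them lay in a peak of any tumor, since the nearest peak began 17 bp past the start. They lie at chr9:123968693-123968942 (GRCm38, the assembly of mm10; minus strand, RefSeq promoter table), and capitals mark a match to the NF-kappaB pattern GGGNNNNNCC, from 74 to 65 bases before the start.
Ccr1 promoter: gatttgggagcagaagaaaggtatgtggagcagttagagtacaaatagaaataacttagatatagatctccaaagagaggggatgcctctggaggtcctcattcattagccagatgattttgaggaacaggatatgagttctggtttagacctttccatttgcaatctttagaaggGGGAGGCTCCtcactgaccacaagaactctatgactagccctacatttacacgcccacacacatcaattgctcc

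Ccr2 (chr9:124101950-124113557, plus strand), the receptor for Ccl2 through which monocytes leave the bone marrow, had no promoter peak in any tumor. Its coverage was 6.23% and 1.31% in control tumors and 0 in both test tumors. The control tumors shared 1 short region in an intron, 2367 to 2775 bp past the start, and the 3 others were seen only in control 1. The difference was -3.77 points (SD 2.84), so 1 control tumor carried most of it.

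The shared Ccr2 region is shown as the only interval of the gene found in more than 1 tumor. These are 300 of its bases at chr9:124104333-124104632 (GRCm38, plus strand), with the 37 bases that lay in the peaks of both control tumors in capitals.
Ccr2 region: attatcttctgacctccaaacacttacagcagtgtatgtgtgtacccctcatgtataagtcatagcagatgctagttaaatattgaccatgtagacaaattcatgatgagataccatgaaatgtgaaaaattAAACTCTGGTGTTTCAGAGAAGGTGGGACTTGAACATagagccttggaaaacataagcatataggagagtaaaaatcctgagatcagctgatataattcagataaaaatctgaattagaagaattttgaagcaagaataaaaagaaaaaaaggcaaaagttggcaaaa

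Other CC receptors did not have this order. Ccr4, the receptor for Ccl17 and Ccl22 on T helper 2 and regulatory T cells, had 1.07% and 0 in the control and 2.47% and 2.28% in the test tumors. Both test tumors were thus higher, by 1.84 points (SD 0.62), on a region in the gene 1818 to 2366 bp past the start that control 1 also had. With peaks at least 1 kb wide the Ccr4 groups overlapped, with a difference of 0.105 points. Ccr10, the receptor for Ccl27 and Ccl28, had 23.6% and 21.4% against 23.6% and 17.9%, with the groups overlapping. Of its covered bases, 21.5% lay nearest its own TSS and the rest nearer the starts of neighboring genes such as Plekhh3 and Cntnap1.

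Ccr7, the receptor for Ccl19 and Ccl21 in lymph node homing, had 2.29% in control 1 and 0 elsewhere, and Ccr6, the receptor for Ccl20, had 0.775% in control 1 and 0 elsewhere. No tumor had a peak near Ccr3, the eotaxin receptor of eosinophils, Ccr8, the receptor for Ccl1, or Ccr9, the receptor for Ccl25.

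In the CXC, CX3C and C receptors most coverage was shared by the groups. Cxcr4, the receptor for Cxcl12, had a promoter peak in every tumor and a coverage of 16.3% and 18.4% in the control and 19.8% and 16.0% in test tumors, with a difference of 0.58 points (SD 2.52). Cxcr5, the receptor for Cxcl13 that guides cells into B cell follicles, had 25.7% and 27.1% against 19.9% and 28.1% without a promoter peak in any tumor. Its peaks lay mainly 3519 to 8001 bp upstream.

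Cxcr6, the receptor for Cxcl16, had no coverage in either control tumor, 0.83% in test 1 and 6.28% in test 2. The difference of 3.55 points (SD 3.14) came from 1 region 8316 to 9570 bp past the start, inside the neighboring gene Fyco1, which held 166 bp of peak in test 1 and 1255 bp in test 2. With windows of 5 kb Cxcr6 had no coverage in any tumor.

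Xcr1, the Xcl1 receptor of cross-presenting dendritic cells, had 3.28% to 4.31% in the 4 tumors, with 0% of the covered bases nearest its own start. Cxcr2, a receptor of neutrophils, had 1.18% in control 2 and 0 elsewhere. No tumor had a peak near Cxcr1, a related receptor of neutrophils, or Cx3cr1, the receptor for Cx3cl1.

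Of the atypical receptors, Ackr3 (chr1:90203980-90216751, plus strand), which scavenges Cxcl12, stood out for a single tumor. Its coverage was 20.2% and 21.4% in control tumors, 24.7% in test 1 and none in test 2. A promoter region, which in test 1 measured 4683 bp, was missing from test 2 altogether, so the groups overlapped and the difference of -8.40 points (SD 14.3) rested on that tumor. Ackr2, which scavenges inflammatory CC chemokines, likewise had no peak in test 2, with 3.80% and 4.50% in control tumors, 4.49% in test 1 and none in test 2. Ackr4, which takes up Ccl19, Ccl21 and Ccl25, had 0 and 3.11% against 1.33% and 2.18%, and no tumor had a peak near Ackr1, known for binding chemokines on red blood cells and venules.

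**Figure D3:**
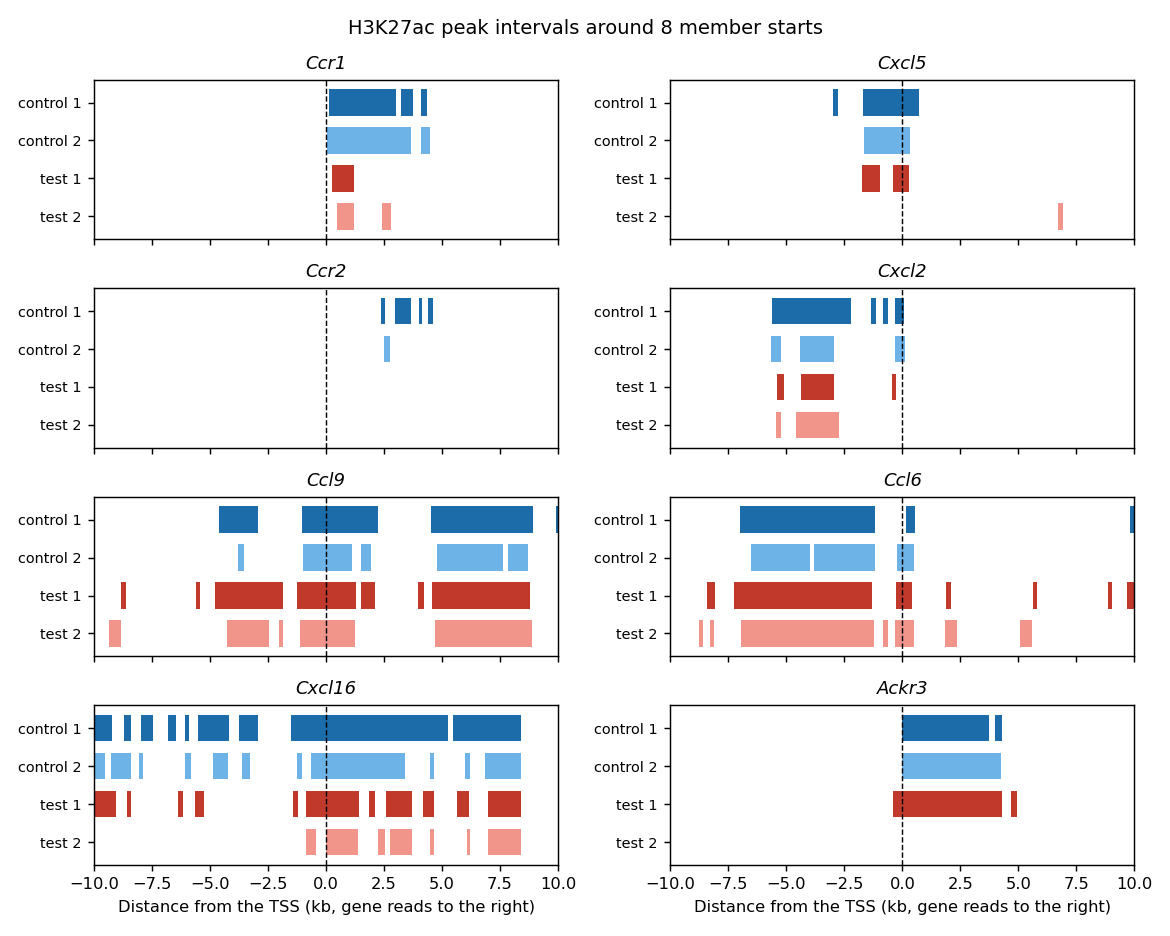
Peak intervals (bars) within 10 kb of the TSS (dashed line) of 8 members, 1 row per tumor, with the gene reading to the right. Ccr1 has wide intervals past its start in the control tumors and narrow ones in the test tumors, Ccr2 has intervals in the control tumors only, and Ackr3 has none in test 2.

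The CXC ligands that attract neutrophils through Cxcr2 lie together on chromosome 5. Cxcl5 had 13.0% and 9.87% in control and 7.31% and 1.09% in test tumors, with a difference of -7.23 points (SD 4.01), and its promoter region, up to 2381 bp of peak, was absent from test 2. Cxcl2 had 21.1% and 11.7% against 9.45% and 10.4%, a difference of -6.47 points (SD 5.44), and again a promoter peak in every tumor but test 2. In both genes all control values exceeded all test values, although for Cxcl2 control 2 was only just above test 2. Cxcl5 overlapped between groups when peaks within 1 kb were joined.

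Cxcl1, the most covered of these 5 ligands, had a promoter peak in every tumor and 38.9% and 23.6% against 22.5% and 25.2%, so that only control 1 stood apart. No tumor had a peak near Cxcl3, a close relative, or Cxcl15, a chemokine known from lung. The windows of Cxcl1 and Cxcl2, whose starts lie 12630 bp apart, share a region 2208 to 5669 bp upstream of Cxcl2 in which peaks filled 3398 bp in control 1 and 1704 to 2069 bp in the others.

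The promoter of Cxcl1 is shown for its NF-kappaB matches, in capitals, which are read on both strands at 2 places from 90 to 61 bases before the RefSeq start (chr5:90890995-90891244, GRCm38, plus strand).
Cxcl1 promoter: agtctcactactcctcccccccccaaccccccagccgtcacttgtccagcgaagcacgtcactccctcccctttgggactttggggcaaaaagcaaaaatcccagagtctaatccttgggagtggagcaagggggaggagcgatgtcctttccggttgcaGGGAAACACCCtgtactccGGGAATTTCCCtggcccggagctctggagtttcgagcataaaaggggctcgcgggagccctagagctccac

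Cxcl16 (chr11:70453983-70459984, minus strand), a membrane-bound ligand for Cxcr6 and a scavenger of oxidized lipoprotein, had the largest difference of all members. Its coverage was 69.4% and 45.0% in control and 40.5% and 24.2% in test tumors, with a difference of -24.8 points (SD 17.0), with control 2 and test 1 close together. All 4 tumors had peaks at the promoter, and peaks filled 6742 and 4422 bp of the promoter region in the control and 4362 and 3234 bp in the test tumors. Upstream, 3 regions between 2933 and 8068 bp before the start were present only in the control tumors. The start of Zmynd15 lies 551 bp away and 38.5% of the covered bases were nearest the Cxcl16 start, so the acetylation cannot be assigned to Cxcl16 alone. With the window ended halfway to the neighboring starts, an alternative chosen after seeing the data, the difference was -29.5 points and the groups still did not overlap.

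Among the other CXC ligands, Cxcl17, a mucosal chemokine, had a promoter peak in every tumor but differed within both groups, at 14.1% and 0.94% in the control and 12.1% and 1.72% in the test tumors. Cxcl12, the ligand of Cxcr4 and Ackr3 made by stromal cells, had 1.96% in test 1 and 0 in the other tumors. No tumor had a peak near Cxcl13, the B cell attractant, or Cxcl14, an epithelial chemokine.

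The ligands of Cxcr3 that interferon induces had little acetylation. Cxcl9 had 1.29% and 2.47% in the control tumors and 0 in the test tumors, on 1 region that lay 445 bp from the start of Art3 and left no covered base nearest the Cxcl9 start. Cxcl10 had 0 and 4.92% against 1.01% and 1.26%, with overlap.

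The 5 ligands of the MIP and RANTES type lie side by side on chromosome 11 and were covered in every tumor. Ccl6 (chr11:83587882-83593087, minus strand), a ligand of Ccr1 made by myeloid cells, had 32.0% and 29.2% in the control and 39.1% and 41.0% in the test tumors. It had the largest positive difference without overlap, 9.51 points (SD 1.95), with a promoter peak in every tumor. An upstream region, 1189 to 7258 bp before the start, was of similar extent in all tumors, at 5122 to 5957 bp of peak. The additional coverage lay mostly in several short regions, of which those 1839 to 2363 bp past and 8081 to 8417 bp before the start were found in both test tumors and no control tumor. With windows of 25 kb the Ccl6 groups overlapped.

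The upstream one of these is shown as a region found in both test tumors only. These are 300 of its bases at chr11:83601168-83601467 (GRCm38, minus strand, intergenic), with the 161 bases shared by the peaks of both test tumors in capitals.
Ccl6 region: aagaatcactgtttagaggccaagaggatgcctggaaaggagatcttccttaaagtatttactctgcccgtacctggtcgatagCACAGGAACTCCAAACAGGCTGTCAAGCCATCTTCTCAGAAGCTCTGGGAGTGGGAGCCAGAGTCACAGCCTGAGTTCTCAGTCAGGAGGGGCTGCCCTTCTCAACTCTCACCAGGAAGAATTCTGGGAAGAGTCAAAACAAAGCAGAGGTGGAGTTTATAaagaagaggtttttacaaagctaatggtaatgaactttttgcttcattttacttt

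Ccl9, the neighbor of Ccl6 and another ligand of Ccr1, had the highest mean coverage of all members, 44.9%. It had 47.2% and 32.4% in the control and 54.6% and 45.3% in the test tumors. The difference of 10.1 points (SD 10.1) was as wide as its spread, and control 1 exceeded test 2. The starts of Ccl6 and Ccl9 are 14451 bp apart, so their windows share bases and their values are not independent.

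The promoters of both genes are printed together, since both had a peak in every tumor and more coverage in the test than in the control mean. Both are the 250 bases before the start on the minus strand of chromosome 11 (GRCm38), chr11:83578637-83578886 for Ccl9 and chr11:83593088-83593337 for Ccl6. Capitals mark an NF-kappaB match read on the opposite strand, 35 to 26 bases before the Ccl9 start, and the Ccl6 window held none.
Ccl9 promoter: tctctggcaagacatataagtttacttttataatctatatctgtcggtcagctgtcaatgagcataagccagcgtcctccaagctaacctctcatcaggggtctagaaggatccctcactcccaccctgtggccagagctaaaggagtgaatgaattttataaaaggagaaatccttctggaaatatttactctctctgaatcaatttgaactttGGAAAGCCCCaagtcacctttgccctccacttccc
Ccl6 promoter: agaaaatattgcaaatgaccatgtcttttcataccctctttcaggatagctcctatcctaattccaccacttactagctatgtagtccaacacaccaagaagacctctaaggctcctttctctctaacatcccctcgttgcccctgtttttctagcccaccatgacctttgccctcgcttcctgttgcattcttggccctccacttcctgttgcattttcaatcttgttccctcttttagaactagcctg

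Ccl3, Ccl4 and Ccl5, which attract monocytes and T cells, were less covered. Ccl3 had 24.3% in control 1 and 11.6%, 12.8% and 11.3% in the others, with 24.3% of its covered bases nearest its own start and most of the rest nearer Rpl9-ps1. Ccl4 had 7.17% and 2.57% against 2.77% and 7.82%, and Ccl5 had 5.63% and 6.36% against 3.16% and 6.05%. In none of the 3 did the groups separate, and only control 1 had a promoter peak at Ccl3 and Ccl4.

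In the monocyte-attracting group, Ccl2, the main ligand of Ccr2, had no peak within 10 kb in any tumor, and neither had Ccl7 and Ccl8. Ccl12, their relative in the mouse, had 2.74% and 3.07% in the control tumors and 0 in both test tumors. The control values were close, with a difference of -2.90 points (SD 0.19). The coverage came from 2 regions that both control tumors shared, 793 to 1199 bp before and 273 to 563 bp past the start, and from 1 region in each control tumor that the other lacked. With peaks under 1 kb left out Ccl12 had no coverage.

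The Ccl12 region past the start is shown whole, since it lies at the only member promoter with peaks in both control tumors and no test tumor. It covers 291 bases of intron at chr11:82102118-82102408 (GRCm38, plus strand), with 32 bases shared by the peaks of both control tumors in capitals.
Ccl12 region: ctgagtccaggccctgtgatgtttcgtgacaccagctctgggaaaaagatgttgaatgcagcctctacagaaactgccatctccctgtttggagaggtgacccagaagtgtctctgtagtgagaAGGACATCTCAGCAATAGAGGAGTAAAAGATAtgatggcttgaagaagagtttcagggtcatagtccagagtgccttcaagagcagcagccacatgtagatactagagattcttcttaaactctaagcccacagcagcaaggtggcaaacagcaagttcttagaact

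Ligands of type 2 inflammation were sparsely acetylated. Ccl22, made by dendritic cells and macrophages for Ccr4, had 6.82% and 3.65% in the control and 9.75% and 2.13% in the test tumors. Ccl17, the other ligand of Ccr4, had 0.745% and 3.82% against 4.86% and 0. Both varied more within than between the groups, and neither had a promoter peak in any tumor. No tumor had a peak near Ccl1, the ligand of Ccr8, or near the eotaxins Ccl11, Ccl24 and Ccl26, which attract eosinophils through Ccr3.

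Epithelial and mucosal ligands gave 2 covered genes of 5. Ccl25, the gut-homing ligand of Ccr9, had 10.5% and 13.9% against 13.8% and 13.1% and a promoter peak in every tumor, 203 bp from the start of Elavl1. Ccl28, a mucosal ligand of Ccr10, had 20.2% in control 1 and 2.59%, 4.37% and 4.66% in the others, so its difference of -6.90 points (SD 10.2) rested on 1 tumor. No tumor had a peak near Ccl20, the ligand of Ccr6, or Ccl27a and Ccl27b, skin ligands of Ccr10. The lymph node ligands Ccl19, Ccl21a and Ccl21b were likewise without a peak in any tumor.

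Cx3cl1, the membrane-bound ligand of Cx3cr1, had a promoter peak in every tumor and 19.4% and 15.7% against 23.5% and 15.6%. The groups overlapped, with a difference of 1.99 points (SD 5.04), and 1 region 2342 to 2876 bp upstream was found in both test tumors only. Xcl1, the C class ligand, had no peak near it in any tumor.

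The named ligand and receptor pairs were set side by side. Cxcl16 was higher in both control tumors and its receptor Cxcr6 in both test tumors. For Cxcl16, 38.5% of the covered bases were nearest its start, and the Cxcr6 order rested on 1 region inside Fyco1 and was lost in 5 kb windows. Ccr2 was higher in both control tumors, as was its ligand Ccl12, while Ccl2 was at 0. Ccr4 was higher in both test tumors while Ccl17 and Ccl22 overlapped. With peaks at least 1 kb wide, none of Cxcl16, Cxcr6, Ccr2, Ccl12 and Ccr4 kept its order. Cxcr4 was covered in all 4 tumors and Ackr3 in all but test 2, whereas Cxcl12 had coverage in test 1 alone, and Cx3cl1 was covered where Cx3cr1 was at 0. Ccr10 was covered in all tumors and Ccl28 mainly in control 1, and of Ccr6 and Ccl20 only the receptor had a peak, in 1 tumor.

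Since many members are neighbors, bases in peaks were also added over the windows of each group of neighboring members. In the 6 receptor genes from Ccr9 to Ccr2 on chromosome 9, spanning 423.5 kb, peaks covered 5.73 and 4.98 kb in the control and 1.97 and 3.04 kb in the test tumors. In the 5 CXC ligands from Cxcl5 to Cxcl2 on chromosome 5 they covered 11.6 and 7.13 kb against 6.14 and 5.25 kb. In these 2 groups the control tumors were higher without overlap, by 2.84 kb and 3.68 kb in the mean. On chromosome 9 nearly all of the difference lay at Ccr1 (-14.1 percentage points of its window). The differences at Ccr2 (-3.77) and Cxcr6 (3.55) were opposite and of similar size, Xcr1 was at 0.06, and Ccr3 and Ccr9 had no peak. In the 5 ligands from Ccl5 to Ccl4 on chromosome 11 the groups overlapped, at 23.1 and 16.4 kb against 21.8 and 21.8 kb. The 6 members from Ccl2 to Ccl1, elsewhere on that chromosome, had 0.548 and 0.613 kb in the control tumors and 0 in the test tumors, all of it at Ccl12, and the 5 from Ccl27a to Ccl21a on chromosome 4 had none.

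**Figure D4:**
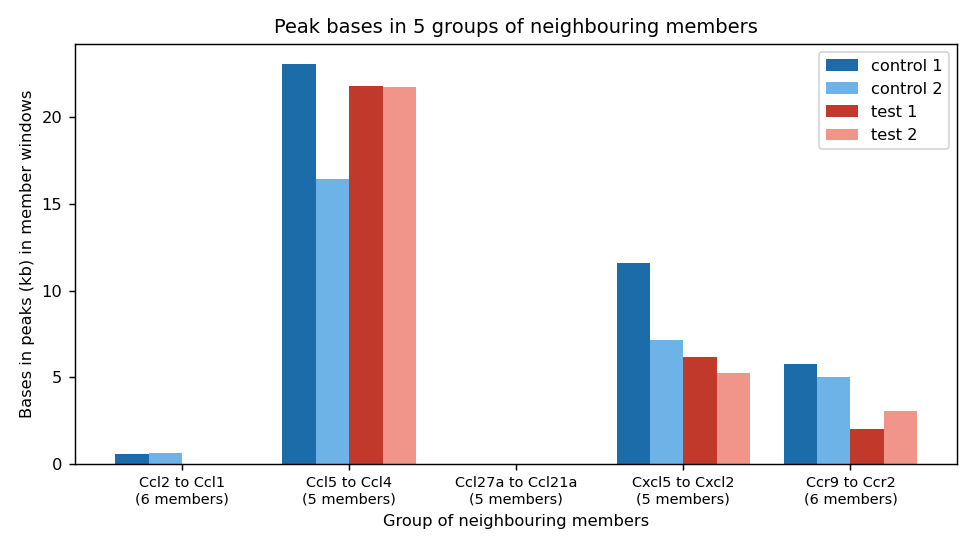
Bases in peaks (kb, bars from 0) in the joined windows of 5 groups of neighboring members in each tumor. The receptor genes from Ccr9 to Ccr2 have 5.73 and 4.98 kb in the control and 1.97 and 3.04 kb in the test tumors, a difference that lies mostly at Ccr1. The ligands from Ccl5 to Ccl4 have 16.4 to 23.1 kb with the groups overlapping.

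Markers of the cells that carry these receptors were set beside them. Of 15 myeloid markers 14 were covered, 7 of them (50%) higher in both control tumors and none in both test tumors, beside 11.7% and 20.9% of all covered genes, with a summed coverage (percent of the window added over the list) of 280.6 and 236.5 in the control and 229.5 and 142.2 in the test tumors. The largest differences without overlap were at Laptm5 (-18.8 points), the complement gene C1qa (-17.9), the transcription factor gene Spi1 (-15.1) and Tyrobp (-10.8), and the defining marker Adgre1 was at 0 while Csf1r, with 11.2% and 8.03% against 8.88% and 5.05%, overlapped. The highest means in the list, at Cd14 and Cd68, were in overlapping groups. The part of these markers in the differences at Ccr1, Ccr2 and Ccl12 was not tested.

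Markers of other cell types were read in the same way, with the same shares of all covered genes, 11.7% control-high and 20.9% test-high, as the background of each count. Of 12 endothelial markers 9 were covered and 5 were higher in both control tumors, Pecam1 and Cdh5 among them, with summed coverage of 59.1 and 51.3 against 21.2 and 8.16. Of 12 fibroblast markers 9 were covered and 4 were higher in both control tumors, with 67.0 and 43.9 against 36.4 and 10.2, while the defining markers Col1a1 and Pdgfra overlapped. Dendritic cell markers had 26.4 and 19.0 against 9.04 and 2.02, with Flt3 at 0, and 2 of 5 covered genes, Itgax and H2-Ab1, were higher in both control tumors. Of 7 neutrophil markers 3 were covered, with 34.3 and 47.7 against 48.5 and 18.2, and 1, Csf3r, was higher in both control tumors (4.79% and 6.71% against 1.02% and 0), while S100a8 overlapped. Most of the neutrophil sum came from Elane, the neutrophil elastase gene, with 26.8% and 35.7% against 43.3% and 16.4%, and without it the sums were 7.47 and 12.01 against 5.17 and 1.80. Of 11 T cell markers 10 were covered, with 61.4 and 65.1 against 59.4 and 43.7. Among them Cd2, Lck and Il7r were higher in both control tumors and Cd3e in both test tumors, while Cd4 overlapped. Most of the T cell sum came from Gata3, a factor of T cells that luminal mammary epithelium also expresses, with 50.02% and 50.36% against 50.72% and 40.31%, and without it the sums were 11.4 and 14.7 against 8.72 and 3.38. Elane and Gata3 were singled out after their values were seen, as the most covered gene of each list. The sums of both lists were lowest in test 2. Luminal epithelial markers stayed within 429.9 to 460.4 in all 4 tumors, with 1 of 11 covered genes higher in both control and 2 in both test tumors. B cell markers had 2 covered genes of 6, Cd79a and Blk, and hepatocyte markers, a list of genes not proper to the breast, 2 of 7. The part of these markers in the differences of the members was not tested.

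**Figure D5:**
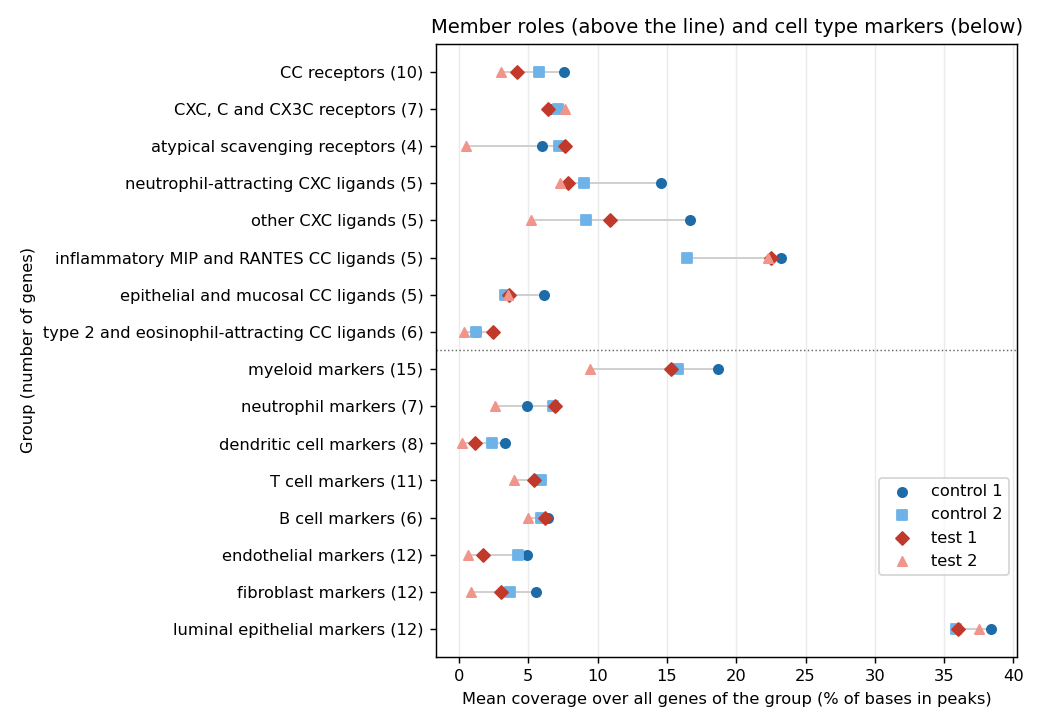
Mean coverage (percent of bases in peaks) over all genes of each member role (above the line) and each cell type marker list (below) in the 4 tumors. CC receptors, neutrophil-attracting CXC ligands and myeloid, dendritic cell, endothelial and fibroblast markers have both control tumors above both test tumors, and luminal epithelial markers lie close together in all 4.

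Genes that act downstream of the receptors were nearly all acetylated. In the list of 27 signaling genes all were covered, against 69.1% of all genes, and 23 had a promoter peak in every tumor, against 50.9% of all genes. The median difference was -0.38 points, with 8 genes higher in both control tumors and 3 in both test tumors. These were shares of 29.6% and 11.1%, beside 11.7% and 20.9% of all covered genes, whose median difference was 0.27 points. The most covered were the G protein genes Gnai2 and Gnb1, the receptor kinase gene Grk2 and Elmo1, which acts in Rac activation, and in all 4 the groups overlapped. Arrb1, which encodes beta-arrestin 1, had 15.8% and 15.7% in the control and 34.6% and 28.0% in the test tumors, whereas its relative Arrb2 had 19.1% and 11.3% against 9.75% and 6.06%. Pik3r5, a regulatory subunit gene of PI3K gamma, had 12.2% and 8.66% against 1.22% and 0.805%, and Rgs2, a brake on G protein signaling, had 24.6% and 30.2% against 20.96% and 22.2%. Arrb1 was thus the only one of these 4 that was higher in the test tumors.

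Of 20 transcription factors and feedback genes known to act in chemokine induction, all were covered, against 69.1% of all genes. The median difference was 0.28 points, with 5 genes higher in both control tumors and 3 in both test tumors. The shares were 25% and 15%, against 11.7% and 20.9% over all covered genes, and the median was close to their 0.27 points. Cebpb, Bcl3, Irf1 and Nfkbia had the highest means, from 37.7% to 69.1% apart from 34.6% for Nfkbia in control 1. The largest differences without overlap were at Irf8, a factor of myeloid and dendritic cells, with 13.4% and 6.53% against 3.16% and 1.20%, and at Tnfaip3, an inhibitor of NF-kappaB signaling, with 20.8% and 13.9% against 11.2% and 11.5%. Birc3 and Cebpd followed, with differences of -4.41 and -1.85 points.

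Among 7 relatives outside the name rule, 6 were covered and 3 were higher in both control tumors, the chemerin-binding receptor gene Ccrl2 (26.2% and 16.8% against 13.9% and 15.1%), the platelet chemokine gene Ppbp (8.48% and 5.84% against 3.52% and 1.09%), whose start is 9158 bp from that of Cxcl5, and Ccr1l1 (7.26% and 2.37% against 1.01% and 0). Cmklr1, the chemerin receptor gene, had 35.6% and 60.8% against 36.8% and 10.3%, and Rarres2, which encodes chemerin, had 1.33% and 10.7% against 2.68% and 0. In the last 2 genes the groups overlapped. No relative was higher in both test tumors, and over all covered genes 11.7% were higher in both control and 20.9% in both test tumors.

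Sequence patterns in the 250 bases before the start were counted on both strands for the 39 members with an entry in the RefSeq promoter table within 1 kb of the annotated start. The NF-kappaB pattern GGGNNNNNCC was in 20 of 39 (51.3%) and in 46.2% of all 31396 promoters of the table. It was in 3 of the 7 members with a promoter peak in every tumor and in 14 of the 26 with none. The interferon response pattern GAAANNGAAA was in 3 members (7.69%, against 2.98%), Cxcl10, Ccl19 and Cxcl14, none of which had a promoter peak in any tumor. The STAT patterns TTCNNNGAA and TTCNNNNGAA were in 3 (7.69%, against 7.06%) and 1 (2.56%, against 5.90%). Such matches are letters in a window and do not say that a factor was bound.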

How the data were processed

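H3K27ac ChIP-seq peaks of 4 breast tumors, 2 control and 2 test, each from a separate mouse, were analysed, and the matched inputs were not analysed here. The authors aligned reads to mm10 with BWA, extended them to 200 bp and called the peaks of each tumor with MACS2 against its input. Versions are not given in the sources used here. The deposited lists hold chromosome, start, end and caller names of peaks, which per the file names had been cleaned and merged (200). The smallest gap between peaks was 201 bp, and what the cleaning removed is not stated. A more deeply sequenced tumor can have more and wider peaks, so coverage mixes depth with acetylation.

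Gene models were the autosomal protein-coding ones of GENCODE M21 (GRCm38), the TSS being the 5′ end of the gene. Coverage used 10 kb either side of the TSS, promoter peaks 1 kb either side with at least 1 bp, and regions the union of all 4 lists. Differences are test mean minus control mean with the SD over 4 pairings, which share tumors. Values were given by tumor for members without group overlap and at least 5 points of difference, with a promoter peak in every tumor or in 1 group only, among the 10 with the highest mean coverage, or in named ligand and receptor pairs, and the other members were named. Some genes are counted but not reported here. Of other lists, up to 4 genes by mean coverage and up to 4 by difference without overlap were named. Those named beyond these rules were chosen after their values were seen. The members and lists were chosen with earlier results of these data known. Groups of neighboring members were formed where starts lay within 500 kb. Promoter and region sequences came from RefSeq (GRCm38.p6). Coverage code was tested on simulated data. Alternatives used other windows, peak filters, joined peaks, every transcript start, joined loci and each tumor left out. Computation used Python 3.11.15, numpy 2.4.6 and pandas 2.3.3.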

Additional observations from a re-analysis of the deposited data

How the results depend on the processing

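The median difference of members stayed negative under every alternative (from -2.60 to -0.46 points), and 5 kb windows moved it most, to -2.60. Windows of 5 kb left 2 test-only regions, and windows of 25 kb left 13 members without a peak. With peaks at least 1 kb wide there were 4 members with a promoter peak in every tumor, 2 members higher in both control tumors, 1 higher in both test tumors (Ccl25), 2 control-only regions and 0 test-only regions. With the widest 59762 peaks of each tumor there were 5 control-only regions, and with peaks within 1 kb joined 5 control-only and 2 test-only regions. When a tumor was left out, the lone tumor of its group stood for the group. Without control 1, control 2, test 1 and test 2 in turn, 14, 15, 17 and 11 members were higher on the control side, 7, 6, 5 and 11 were higher on the test side, and there were 16, 35, 17 and 12 control-only and 7, 7, 10 and 16 test-only regions. Members with a promoter peak in every remaining tumor numbered 10 to 13, members without a peak 24 to 26, and the median ranged from -1.96 to -0.49. Fewer tumors make such an order easier to reach, since covered genes also rose, from 11.7% to between 18.2% and 39.5% for the control tumors and from 20.9% to between 32.4% and 50.1% for the test tumors. With the same number of peaks per tumor, 8 of 33 covered members (24.2%) were higher in both control tumors, against 10.8% of covered genes. None of the 11 members without group overlap reversed the sign of its difference under any alternative, although some went to 0 when narrow peaks or distant bases were left out. Windows cut halfway to neighboring starts were added after seeing the data. The depth behind the peaks is unknown, so a missing peak does not exclude acetylation below the caller's threshold. No paired analysis was possible because the replicate numbers only name tumors.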
